A study of Mus musculus with 2 samples.

Results

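The S phase genes are the 39 genes commonly scored to find cells that are copying their DNA, and all 39 had a column in both deposited tables, out of 18131 gene columns. The members were taken by name from that list. They were followed in 2 single-cell libraries from mouse embryos at E9.5, one from wild-type (WT) embryos, Prdm6+/+; Wnt1-Cre2; ZsGreen1, and one from knockout (KO) embryos, Prdm6f/f; Wnt1-Cre2; ZsGreen1, both on C57BL/6. The tissue was the cardiac neural crest region, which reaches from the otic placode down to the 4th somite, and one question of the study was whether cells without Prdm6 progress through the cell cycle as others do. Both genotypes carried the Cre transgene, driven by the Wnt1 promoter, and the ZsGreen1 reporter, so Prdm6 was targeted only in cells of the Wnt1 lineage, while the libraries also hold every other cell of the cut region. The full name of the Wnt1-Cre2 strain places its transgene in E2f1. Each genotype is 1 library, and the files do not tie cells to embryos, so the spread between embryos is unknown and no difference between WT and KO can be tested.

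Before a cell divides, it loads the MCM helicase onto replication origins, opens the DNA and copies it with primase and polymerases that are held on the strand by the PCNA clamp. Ribonucleotide reductase and thymidylate synthase supply the nucleotides, histone chaperones wrap the new DNA, methylation is copied to the new strand, and checkpoint and repair proteins protect the forks. Many of these genes are switched on together at the G1/S boundary by E2F transcription factors, which makes their mRNAs markers of dividing cells in an embryo.

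The WT library held 11958 cells and 20781384 unique molecular identifiers (UMIs, each counting 1 captured mRNA molecule), with a median of 1597 per cell. The KO library held 9765 cells and 18936857 UMIs, with a median of 1703. The study's methods removed UMIs of mitochondrial and ribosomal genes, and all totals and levels here count only UMIs in the deposited values. The 2 libraries shared 26 cell barcodes. Prdm6 itself was scarce, at 104 UMIs in WT and 59 in KO, or 5.00 and 3.12 CPM (UMIs of a gene per 1000000 UMIs of the library). Its log2 ratio of KO over WT was -0.68, with a 95% counting interval from -1.17 to -0.21. Here and throughout, intervals are exact Poisson intervals for a level and exact conditional binomial intervals for a ratio, and they cover counting error only.

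Upstream sequence was read for the members to show the letters by which E2F and NF-Y, the CCAAT-box factor, are usually recognised. RefSeq promoter sequence of build GRCm38.p6 was found for 29 of the 39 members, and the 250 bases before the start were searched on both strands. For 25 of the 29, the bases after the start lay in a GENCODE transcript of the gene. The starts can differ from the GENCODE gene positions given further on. An E2F octamer (TTTCGCGC, TTTGGCGC or TTCCCGCC) stood in 8 of the 29, or 27.6%, against 6.00% of the 8247 genes with a promoter and at least 200 UMIs, and 2.85% of all 27025 genes of the table. The pentamer CCAAT stood in 20 of the 29, or 69.0%, against 41.1% and 37.5% of those same sets. For the 45 other DNA replication genes of a second list, 41 had a promoter, of which 6 held an E2F octamer and 21 held CCAAT. For the 52 G2 and mitosis genes, 46 had a promoter, of which 3 held an octamer and 35 held CCAAT. The 4 sequences that follow run 5′ to 3′ to the base before the start, with E2F octamers and CCAAT, or their reverse complements, in capitals. Mcm5 (chr8:75109259-75109508, plus strand) and Mcm6 (chr1:128359706-128359955, minus strand), which encode subunits of the helicase, held TTTCGCGC and TTTGGCGC on opposite strands in 1 overlapping run. Casp8ap2 (chr4:32615220-32615469, plus strand) held TTTGGCGC and TTCCCGCC. Nasp (chr4:116627952-116628201, minus strand), the member with most UMIs, held CCAAT in both orientations and no octamer.
Mcm5: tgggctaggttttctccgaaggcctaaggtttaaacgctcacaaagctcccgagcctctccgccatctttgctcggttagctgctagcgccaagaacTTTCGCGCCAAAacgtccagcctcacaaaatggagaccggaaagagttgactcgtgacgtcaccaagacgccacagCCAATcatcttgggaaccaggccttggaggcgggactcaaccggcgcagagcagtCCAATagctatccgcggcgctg
Mcm6: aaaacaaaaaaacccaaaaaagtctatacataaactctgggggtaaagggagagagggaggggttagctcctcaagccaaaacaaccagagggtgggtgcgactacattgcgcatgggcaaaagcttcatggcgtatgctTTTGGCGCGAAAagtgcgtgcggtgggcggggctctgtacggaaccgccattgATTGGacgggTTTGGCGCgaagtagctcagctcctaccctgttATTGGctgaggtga
Casp8ap2: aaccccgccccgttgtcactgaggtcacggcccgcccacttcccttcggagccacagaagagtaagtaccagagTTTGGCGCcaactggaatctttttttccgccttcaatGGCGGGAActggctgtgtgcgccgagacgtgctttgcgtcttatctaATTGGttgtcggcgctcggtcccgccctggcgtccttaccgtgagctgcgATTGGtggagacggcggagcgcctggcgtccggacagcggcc
Nasp: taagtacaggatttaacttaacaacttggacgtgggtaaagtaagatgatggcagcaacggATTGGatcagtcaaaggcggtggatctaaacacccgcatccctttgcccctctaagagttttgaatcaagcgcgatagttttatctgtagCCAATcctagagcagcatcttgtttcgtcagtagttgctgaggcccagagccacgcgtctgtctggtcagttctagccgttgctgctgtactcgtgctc
The KO over WT ratios of the 8 members with an octamer ran from -0.12 to 0.30 on the log2 scale with a median of 0.08, and those of the 21 without one ran from -0.25 to 0.35 with a median of -0.02. The 2 ranges overlapped over most of their length. A match is a run of letters and not a measured binding site.

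Summed over all cells, the S phase genes were slightly more abundant in KO than in WT. The sum was 124983 UMIs in WT and 117977 in KO, or 6014 CPM (5981 to 6048) and 6230 CPM (6195 to 6266). The KO sum was higher by 0.05 on the log2 scale (0.04 to 0.06). This interval left out 0, but it holds no spread between embryos, and relative to the G2 and mitosis genes the direction turned, to -0.054. The median gene with at least 200 UMIs had a log2 ratio of -0.06, and the central 90% of the 10513 such genes ran from -0.44 to 0.30. Of the 39 members, 25 lay above that median, and the median member was at 0.03. The 52 G2 and mitosis genes, the other phase list in common use, stood at 10282 CPM in WT and 11060 CPM in KO, 0.11 higher (0.10 to 0.11).

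Single members ranged from -0.25 for Rrm2 to 0.35 for Clspn. The ratio of the levels was past 5 to 4 in favour of KO for 2 members (5.13%), Hells and Clspn, against 3.86% of all genes with at least 200 UMIs. No member was past it in favour of WT, against 10.6% of all genes. The counting interval of the ratio lay above 0 for 15 members and below 0 for 10, and it included 0 for 14. Over all genes these shares were 16.9% above and 29.1% below. All genes were not matched to the members for UMIs, on which the width of an interval depends. Scaling by a trimmed mean of log ratios or by the median of ratios moved every ratio up by 0.06 or 0.07. The interval counts were not repeated under these scalings, and they would change. Such a shift carries the interval of Mcm5 (-0.13 to -0.02) over 0, for example, and that of Rrm1 (-0.01 to 0.11) above it. Under either scaling 6 members were past 5 to 4 higher (Gmnn, Nasp, Hells, Casp8ap2, Clspn and Rad51ap1) and none lower, where 6.48% or 6.73% of all genes were higher and 7.12% or 6.86% lower.

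**Figure D1:**
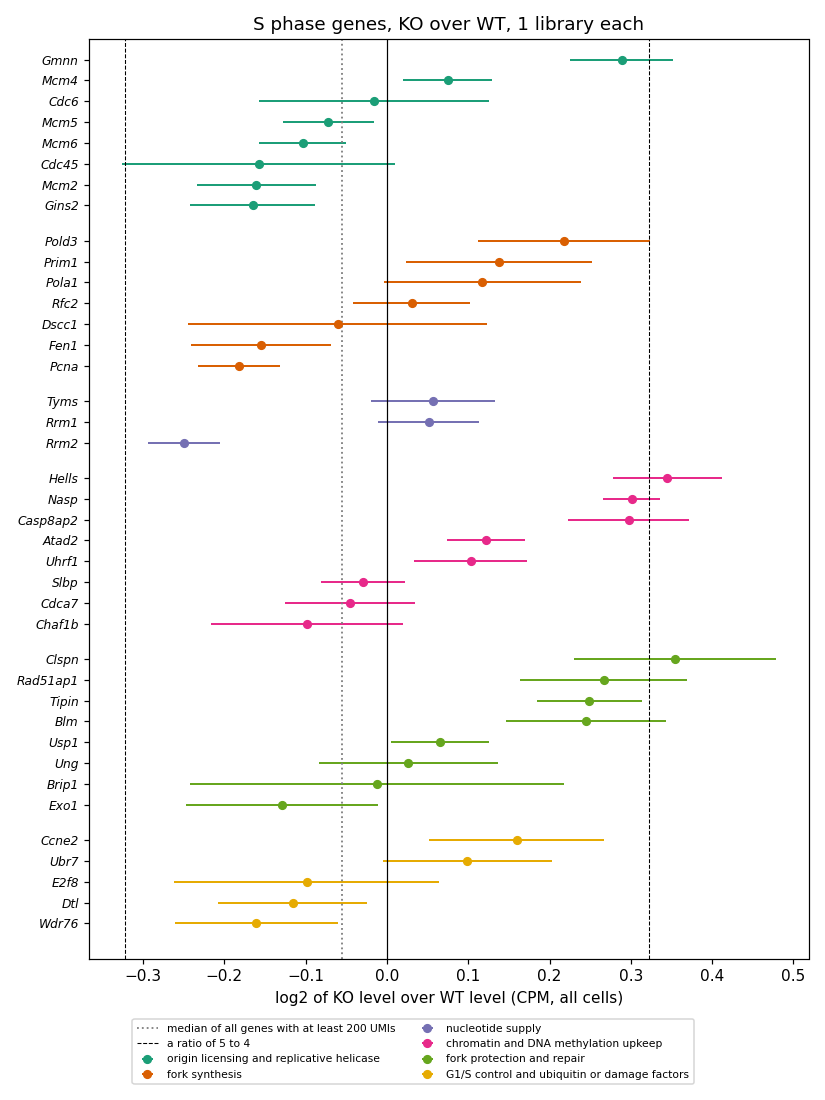
The log2 ratio of KO over WT of each S phase gene over all cells, by role, with 95% counting intervals (1 library per genotype). The chromatin genes Hells, Nasp and Casp8ap2 and the fork protection genes Clspn, Rad51ap1, Tipin and Blm lie to the right of 0, and Rrm2 at -0.25 lies farthest to the left.

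The 8 origin and helicase genes together were level between the libraries, at 1389 CPM in WT and 1374 CPM in KO, a log2 ratio of -0.02 (-0.04 to 0.01), which turned to 0.04 or 0.05 under the other scalings. Of these, 2 had intervals above 0 and 4 below, against 16.9% and 29.1% of all genes. Among the 4, the intervals of Mcm5 (-0.13 to -0.02) and Mcm6 (-0.16 to -0.05) would include 0 under the other scalings. Geminin, encoded by Gmnn, which keeps origins from being loaded a second time, went from 185 to 226 CPM (0.29, from 0.23 to 0.35). Without Gmnn the other 7 stood at 1204 CPM in WT and 1148 CPM in KO, a ratio of -0.07 (-0.10 to -0.04), or -0.01 and 0.00 under the other scalings. The helicase subunits did not go one way. Mcm4 went from 261 to 275 CPM (0.07), Mcm5 from 264 to 251 CPM (-0.07), Mcm6 from 297 to 276 CPM (-0.10, or -0.02 with cells thinned to 1000 UMIs) and Mcm2 from 161 to 144 CPM (-0.16). Gins2, part of the GINS complex that joins the helicase at the fork, went from 148 to 132 CPM (-0.17, from -0.24 to -0.09). Cdc45, the helicase's other partner, stood at 31.3 and 28.0 CPM (-0.16, from -0.33 to 0.01), and the loader Cdc6 at 41.4 and 40.9 CPM (-0.02).

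The 7 fork synthesis genes summed to 820 CPM in WT and 792 CPM in KO, a log2 ratio of -0.05 (-0.08 to -0.02), which turned to 0.01 under both other scalings. Pcna, the sliding clamp, held the largest share of that sum and went from 341 to 301 CPM (-0.18, from -0.23 to -0.13, or -0.10 when thinned). Without Pcna the other 6 were at 479 and 491 CPM, a ratio of 0.04 (-0.01 to 0.08). Fen1, the nuclease that trims Okazaki fragments, went from 117 to 105 CPM (-0.15, or -0.10 when thinned). The polymerase delta subunit Pold3 went the other way, from 68.0 to 79.1 CPM (0.22, from 0.11 to 0.32), as did the primase subunit Prim1, from 59.6 to 65.6 CPM (0.14). The polymerase alpha subunit Pola1 was at 53.8 and 58.4 CPM (0.12), the clamp loader subunit Rfc2 at 156 and 159 CPM (0.03) and the cohesion factor Dscc1 at 25.2 and 24.1 CPM (-0.06), all 3 with intervals that included 0.

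As a sum the nucleotide supply genes stood lower in KO, and 1 gene carried the difference. Their sum was 794 CPM in WT and 735 CPM in KO (-0.11, from -0.14 to -0.08), and it stayed below 0, at -0.05, under both other scalings. Rrm2, the subunit of ribonucleotide reductase that is made in S phase, went from 454 to 382 CPM (-0.25, from -0.29 to -0.20). Its partner subunit Rrm1 was at 204 and 211 CPM (0.05, from -0.01 to 0.11, or 0.15 when thinned), and Tyms, thymidylate synthase, at 136 and 142 CPM (0.06, from -0.02 to 0.13, or 0.13 when thinned), both with intervals that included 0. Without Rrm2 those 2 summed to 340 and 353 CPM, 0.05 higher in KO (0.00 to 0.10).

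As a sum the chromatin genes stood higher in KO. Their 8 members summed to 1909 CPM in WT and 2152 CPM in KO (0.17, from 0.15 to 0.19). The interval lay above 0 for 5 members and below 0 for none, against 16.9% and 29.1% of all genes. Nasp, a chaperone of histone H3 and the linker histone, had the most UMIs of any member, 12731 in WT and 14291 in KO, and went from 613 to 755 CPM (0.30, from 0.27 to 0.34). Without Nasp the other 7 stood 0.11 higher in KO (0.08 to 0.13), and the median member was at 0.11. Hells, a chromatin remodeller needed for DNA methylation, went from 161 to 204 CPM (0.34, from 0.28 to 0.41). Casp8ap2, whose protein acts in the bodies where histone mRNAs are made, went from 133 to 164 CPM (0.30, from 0.22 to 0.37). The differences were smaller for Atad2, from 340 to 370 CPM (0.12, but -0.01 with all cells thinned to 1000 UMIs), and for Uhrf1, which brings the maintenance methylase to new DNA, from 162 to 174 CPM (0.10). Slbp, which binds the stem-loop at the end of histone mRNAs, was at 310 and 304 CPM (-0.03), Cdca7 at 129 and 125 CPM (-0.05), and Chaf1b, of the histone chaperone CAF-1, at 61.2 and 57.1 CPM (-0.10), each with an interval that included 0.

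The replication histone mRNAs, whose making involves Casp8ap2 and Slbp, mostly lack a poly(A) tail and are poorly captured by this chemistry. Of the 60 columns of clustered histone genes, 13 had at least 200 UMIs. Of these 6 (46.2%) were past 5 to 4 higher in KO and 1 (7.69%) lower, against 3.86% and 10.6% of all genes. The 60 columns summed to 300 CPM in WT and 584 CPM in KO (0.96, from 0.92 to 1.01). Most of the gap lay in 2 genes that were singled out after their values were seen. Hist1h2ae went from 67.5 to 221 CPM (1.71) and Hist1h1b, a linker histone, from 37.0 to 130 CPM (1.82). The other 58 columns stood at 195 and 233 CPM (0.26, from 0.19 to 0.32). Whether the amount of tailed histone mRNA, or its capture, differed between the libraries was not tested.

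Fork protection and repair genes also stood higher in KO, with a sum of 741 CPM in WT and 822 CPM in KO (0.15, from 0.12 to 0.18). This interval overlapped that of the chromatin genes, and the median member was at 0.16. The interval lay above 0 for 5 members and below 0 for 1, against 16.9% and 29.1% of all genes. Clspn encodes claspin, the adaptor that passes the stalled-fork signal from ATR to CHK1. It was scarce, with 984 and 1146 UMIs, and went from 47.4 to 60.5 CPM (0.35, from 0.23 to 0.48). Tipin, a fork-protection partner of Timeless, went from 178 to 211 CPM (0.25), the helicase gene Blm from 77.6 to 91.9 CPM (0.25, or 0.13 when thinned) and Rad51ap1 from 71.1 to 85.5 CPM (0.27). Without Clspn the sum was still 0.14 higher in KO (0.10 to 0.17). Exo1, a nuclease of mismatch repair and end resection, went the other way, from 62.1 to 56.8 CPM (-0.13, from -0.25 to -0.01, or -0.22 when thinned). Usp1, which takes ubiquitin off PCNA, was at 222 and 232 CPM (0.07, or 0.024 when thinned), the uracil glycosylase gene Ung at 67.3 and 68.5 CPM (0.03), and Brip1, the scarcest member with 332 and 300 UMIs, at 16.0 and 15.8 CPM (-0.01).

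The 5 remaining genes, of G1/S control and of ubiquitin or damage responses, were level as a sum, at 360 and 354 CPM (-0.02, from -0.07 to 0.02, and 0.04 under the other scalings). Ccne2, the cyclin E2 gene, went from 67.0 to 74.9 CPM (0.16, from 0.05 to 0.27). Wdr76 went from 86.2 to 77.2 CPM (-0.16, from -0.26 to -0.06), and Dtl, which directs CDT1 to destruction in S phase, from 101 to 92.8 CPM (-0.12). The repressor E2f8 was at 32.6 and 30.4 CPM (-0.10) and Ubr7 at 73.9 and 79.2 CPM (0.10), both with intervals that included 0.

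Outside the 39, a list of 47 other DNA replication genes was read, of which 45 had a column. These summed to 4395 CPM in WT and 4498 CPM in KO, 0.03 higher (0.02 to 0.05), with a median gene at -0.03. Past 5 to 4 were 4 higher (8.89%), Rfc1, Pole3, Lig1 and E2f1, and 2 lower (4.44%), Cdt1 and Timeless. Over all genes with at least 200 UMIs, 3.86% were higher and 10.6% lower. Rfc1, the large subunit of the clamp loader, went from 117 to 175 CPM (0.59), Pole3, a histone-binding subunit of polymerase epsilon, from 88.6 to 114 CPM (0.37), and the DNA ligase gene Lig1 from 241 to 307 CPM (0.35). Cdt1, the origin-loading factor that geminin blocks, went from 125 to 91.4 CPM (-0.45, from -0.54 to -0.37), while Gmnn was 0.29 higher. Timeless, the partner of Tipin, went from 46.6 to 37.1 CPM (-0.33, from -0.47 to -0.19), while Tipin was 0.25 higher.

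E2f1, the founding E2F gene (chr2:154559407-154569892, minus strand, in the GENCODE vM21 annotation of GRCm38), showed the widest gap of any replication gene read. It had 55 UMIs in 55 cells of WT and 266 UMIs in 264 cells of KO, or 2.65 CPM (1.99 to 3.44) and 14.0 CPM (12.4 to 15.8), a log2 ratio of 2.41 (1.98 to 2.85). The counts within cell types were small. Cells gated as cardiac muscle had 7 UMIs in WT and 53 in KO, and endothelial cells 2 and 10. Cells gated as migrating neural crest had 2 in each library. Droplets also hold free RNA, so single UMIs do not show which cells transcribed the gene. Both genotypes carry the transgene that the strain name places in this gene, and the number of copies per embryo is not given in the sources used here. Whether the transgene has a part in the E2f1 difference was not tested. Among the members, its relative E2f8 stood at -0.10, and the 8 members with an E2F octamer had a median ratio of 0.08.

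Cells were then grouped by marker genes. A cell passed a gate with at least 3 UMIs over at least 2 different markers, and cells that passed several gates were left out, which left 11 cell types with at least 30 cells in each library. No gate was passed by 7340 WT cells (61.4%) and 5975 KO cells (61.2%). Although the samples are labelled as cardiac neural crest cells, the migrating neural crest gate (Sox10, Foxd3 and others) took 248 WT cells (2.07%) and 192 KO cells (1.97%), and the cardiac muscle gate took 2117 and 1949. Genes held out of the gates checked them. Ets1 and Ednrb were 2.52-fold and 3.72-fold higher in gated WT neural crest than in cells with no gate, and Map2 was 13.3-fold higher in gated WT neurons. Hand2, held out for pharyngeal and splanchnic mesoderm, was 1.55-fold higher in WT and 1.86-fold in KO. Its second gene, Gata6, was 2.23-fold and 2.67-fold higher. For arch mesenchyme Prrx1 was 1.62-fold and 2.91-fold higher and Twist1 3.12-fold and 2.90-fold, and for somite Foxc2 was 2.24-fold and 1.90-fold higher and Pax3 5.90-fold and 6.04-fold. Cells with no gate held the embryonic globin Hbb-y at 2451 CPM in WT and 1263 CPM in KO, against 55903 and 59620 CPM in erythroid cells, and the part of free RNA in the levels by cell type was not tested.

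The S phase sum was highest in the neural tube in both libraries, and the lowest of the 11 types in WT was neurons, whose interval overlapped that of endothelial cells. Neural tube cells (Sox1, Pax6 and other progenitor markers) stood at 6786 CPM in WT (187 cells, 6525 to 7055) and 6731 CPM in KO (166 cells, 6476 to 6993). Neurons (Tubb3, Elavl3 and others) stood at 4866 CPM in WT (111 cells, 4555 to 5192) and 5106 CPM in KO (101 cells, 4812 to 5413). Neurons were thus lower than the neural tube by 0.48 (0.37 to 0.59) in WT and by 0.40 (0.30 to 0.50) in KO on the log2 scale. The neural tube progenitors of this stage divide, whereas neurons have left the cycle.

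Between these ends lay, in WT, pharyngeal and splanchnic mesoderm at 6031 CPM, the dorsal neural tube edge at 5988 CPM, arch mesenchyme at 5923 CPM, somite at 5920 CPM, floor plate at 5846 CPM and migrating neural crest at 5743 CPM, and the intervals of these 6 all overlapped. Cardiac muscle at 5469 CPM, erythroid cells at 5285 CPM and endothelial cells at 5143 CPM were lower. In KO, arch mesenchyme at 6491 CPM (6135 to 6862) overlapped the neural tube, and erythroid cells at 5080 CPM (4869 to 5297) overlapped neurons.

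**Figure D2:**
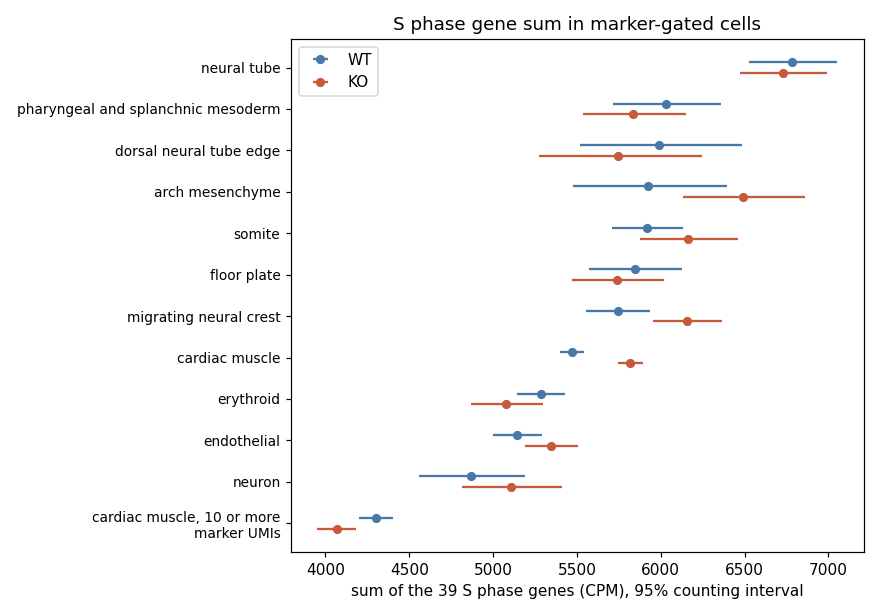
The sum of the 39 S phase genes in marker-gated cells of WT and KO, in CPM with 95% counting intervals. The neural tube at 6786 CPM in WT stands highest, and cardiac muscle cells with at least 10 marker UMIs stand lowest, at 4301 CPM in WT and 4066 CPM in KO.

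Between genotypes, the intervals of the ratio left out 0 in 2 of the 11 types. Migrating neural crest, a type of the Wnt1 lineage in which Prdm6 is targeted, stood at 5743 CPM in WT (5555 to 5937) and 6159 CPM in KO (5955 to 6368), a log2 ratio of 0.10 (0.03 to 0.17). It was 0.034 with no UMI minimum in the gate and 0.064 with gates on thinned counts. Cardiac muscle stood at 5469 CPM in WT (5396 to 5542) and 5819 CPM in KO (5743 to 5895), a ratio of 0.09 (0.06 to 0.12). Cells with no gate were 0.04 higher in KO (0.02 to 0.05), and cells passing several gates 0.13 higher (0.08 to 0.18). The other 9 types had intervals that included 0, and the sign of several turned under some alternative, as given in the closing section. Arch mesenchyme was at 0.13 (-0.01 to 0.27), the dorsal neural tube edge at -0.06 (-0.23 to 0.11), and the neural tube at -0.01 (-0.09 to 0.07). Neurons, somite and endothelial cells were at 0.07, 0.06 and 0.06, and erythroid cells, pharyngeal and splanchnic mesoderm and floor plate at -0.06, -0.05 and -0.03. Whether any type differs from the others in its ratio was not tested.

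The cardiac value turned on the gate. With at least 10 marker UMIs, a setting added after the values were seen, 699 WT and 394 KO cells passed. These stood at 4301 CPM in WT (4201 to 4402) and 4066 CPM in KO (3951 to 4184), below neurons in both libraries, and the ratio of KO over WT turned to -0.08. Their median depth was 2272 UMIs in WT and 3008 in KO. Against the neural tube under the same gating they were lower by 0.66 (0.59 to 0.72) in WT and by 0.75 (0.68 to 0.81) in KO. They were also deeper than the neural tube cells of this gating (215 in WT, 211 in KO), whose median was 1897 UMIs in WT and 2311 in KO, and the S phase sum was lower in deeper cells.

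Cell depth moved with the S phase sum. In WT the sum was 7097 CPM in cells under 1000 UMIs and 4929 CPM in cells of 3000 UMIs or more, and in KO it was 6960 and 5308 CPM. In the shallowest bin, with 1361 WT and 125 KO cells, the ratio was -0.03 (-0.13 to 0.07). In the 4 bins from 1000 UMIs up the KO level was higher, by 0.04, 0.09, 0.14 and 0.11 on the log2 scale. With the bins weighted alike the ratio over all cells was 0.09 in place of 0.05. Gated cells of all 11 types were deeper than cells with no gate, whose median was 1391 UMIs in WT and 1474 in KO. The neural tube had a median of 1897 UMIs in WT and 2327 in KO, and neurons 1563 and 2083. The part of depth in the differences between cell types was not tested.

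**Figure D3:**
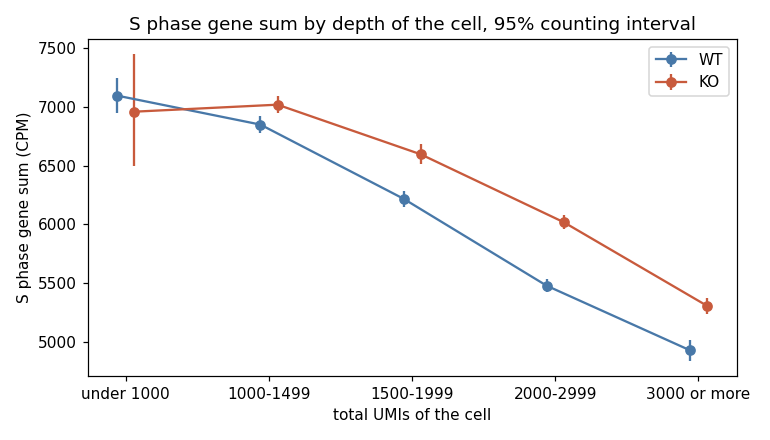
The sum of the 39 S phase genes, in CPM with 95% counting intervals, in cells grouped by their total UMIs. In WT it goes from 7097 CPM in the shallowest cells to 4929 CPM in the deepest, and KO lies above WT in the 4 deeper bins.

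Most members stood lower in neurons than in the neural tube, though only a minority with an interval that left out 0. In WT 36 of 39 were lower in neurons than in the neural tube, and 34 of 39 in KO, where 56.3% and 53.0% of all genes were lower. The interval lay below 0 for 9 members in WT and 8 in KO (4.68% and 5.05% of all genes), and above 0 for none. The shares over all genes were not matched to the members for UMIs, on which the width of an interval depends. Only Mcm5 and Atad2 had an interval below 0 in both libraries, and the other members with such an interval differed between WT and KO. The share of all genes with such an interval in both libraries was not taken. Whether the overlap is larger than that of unrelated lists was not tested, so these genes are given as examples. Mcm5 (chr8:75109569-75128439, plus strand), whose promoter is printed above, was at 349 CPM in the WT neural tube and 171 CPM in WT neurons, and at 325 and 177 CPM in KO. Atad2 (chr15:58094044-58135082, minus strand), which encodes a bromodomain ATPase, was at 419 and 240 CPM in WT and at 428 and 300 CPM in KO. Nasp stood at 574 CPM in the WT neural tube and 592 CPM in WT neurons, and at 676 and 659 CPM in KO, so its level in neurons was close to that in progenitors. The levels of Gins2 (157 and 149 CPM in WT, 138 and 136 CPM in KO) and of Clspn (45.3 and 42.6 CPM in WT, 69.2 and 68.1 CPM in KO) were also close, with far fewer UMIs behind them. In the cardiac cells with at least 10 marker UMIs, 37 members in WT and 35 in KO were lower than in the neural tube, where 56.5% and 57.1% of all genes were lower. The interval lay below 0 for 27 and 28 members (17.0% and 18.1% of all genes, again not matched for UMIs).

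Across the cell types, 6 members were higher in KO in at least 9 of 11 types, Nasp in 11, Blm and Usp1 in 10, and Gmnn, Atad2 and Rad51ap1 in 9, while 7.64% of all genes were higher in as many. Lower in at least 9 were 4 members, Pcna and Mcm6 in 10 and Rrm2 and Chaf1b in 9, while 11.1% of all genes were. The shares over all genes were not matched for UMIs, and a type without a UMI in either library counted for neither direction. The types come from the same 2 libraries and are not replicates. Nasp (chr4:116601052-116627941, minus strand) was higher in KO in 11 of 11 types, also under both other scalings. In cardiac muscle it went from 574 to 771 CPM (0.42, from 0.35 to 0.50), in migrating neural crest from 494 to 593 CPM (0.26, from 0.03 to 0.49), and in erythroid cells from 434 to 456 CPM (0.07, from -0.18 to 0.32). Rrm2 (chr12:24708241-24714146, plus strand) was lower in KO in 9 of 11 types (8 under the median of ratios), the exceptions being arch mesenchyme and neurons. In the neural tube it went from 539 to 387 CPM (-0.48, from -0.79 to -0.17), in migrating neural crest from 497 to 400 CPM (-0.31, from -0.57 to -0.06), and in endothelial cells from 367 to 290 CPM (-0.34, from -0.58 to -0.10).

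Pcna (chr2:132249162-132253314, minus strand) and Mcm6 (chr1:128331590-128359664, minus strand) were each lower in KO in 10 of 11 types, under both other scalings as well. For Pcna the lowest ratio was in pharyngeal and splanchnic mesoderm, from 376 to 202 CPM (-0.90, from -1.44 to -0.37), and the exception was neurons, at 240 and 273 CPM (0.18). For Mcm6 it was in floor plate, from 279 to 191 CPM (-0.55, from -1.06 to -0.04), and the exception was arch mesenchyme, at 202 and 230 CPM (0.18). Both were lower in migrating neural crest, Pcna at 284 and 270 CPM and Mcm6 at 246 and 218 CPM, with intervals that included 0.

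Hells (chr19:38930915-38971051, plus strand) went from 108 to 209 CPM in migrating neural crest (0.95, from 0.50 to 1.41), from 118 to 178 CPM in endothelial cells (0.59, from 0.23 to 0.96) and from 98.6 to 198 CPM in pharyngeal and splanchnic mesoderm (1.01, from 0.25 to 1.80). In the neural tube it was at 251 and 207 CPM (-0.27, from -0.72 to 0.17), and in erythroid cells at 103 and 90.3 CPM (-0.20). The value of migrating neural crest rests on 66 UMIs in WT and 117 in KO, and whether the ratio of Hells differs between types was not tested. Atad2 was 0.38 higher in migrating neural crest (417 to 541 CPM, interval 0.13 to 0.62) and 0.37 higher in somite (377 to 489 CPM), and it was higher in KO in 9 of 11 types.

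Clspn (chr4:126556935-126593903, plus strand) was too scarce for most types, with 8 and 15 UMIs in neurons. Its ratio left out 0 in endothelial cells, from 43.7 to 79.4 CPM (0.86, from 0.28 to 1.47). In migrating neural crest it was at 49.2 and 76.8 CPM (0.64, from -0.07 to 1.36). Mcm4 (chr16:15623897-15637400, minus strand) was higher in KO in 6 of 11 types, among them migrating neural crest, from 243 to 305 CPM (0.33, from 0.00 to 0.66), and Mcm5 in 3 of 11 (4 or 5 under the other scalings). Slbp (chr5:33634952-33652574, minus strand) was higher in 6 of 11 (7 under the other scalings), and its interval included 0 in all 11.

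Per cell, S phase UMIs were few and spread almost evenly. To compare cells at 1 depth, 1000 UMIs were drawn from each, and shallower cells (1361 in WT, 125 in KO) were not used. The median cell then held 6 S phase UMIs in both libraries, with a mean of 6.21 in WT and 6.49 in KO. Cells with 10 or more made up 12.5% in WT and 14.5% in KO, and cells with none 0.528% and 0.342%. In the neural tube 17.0% of WT and 18.7% of KO cells held 10 or more, and in neurons 5.66% and 2.06%. The variance of the sum was 1.27 times its mean in WT and 1.23 times in KO, where counting alone gives 1. The same ratio was 1.38 and 1.34 for the G2 and mitosis sum. No second group of cells rich in S phase UMIs stood apart, but at about 6 UMIs per cell counting error can hide such a group.

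**Figure D4:**
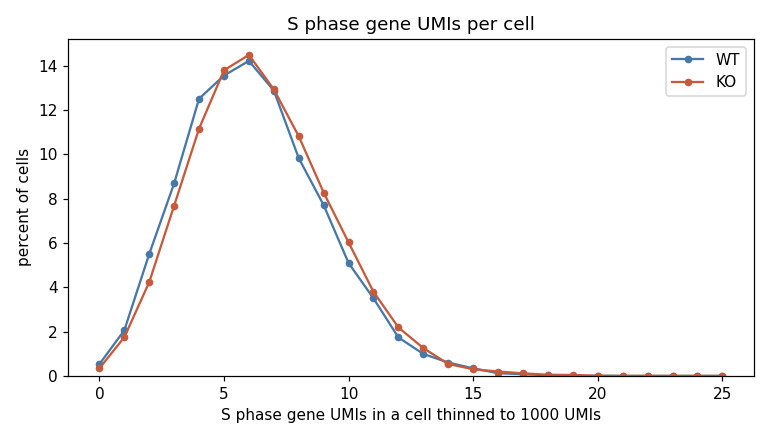
The percent of cells by their number of S phase gene UMIs, after each cell was thinned to 1000 UMIs, in WT and KO. Both curves have 1 peak, with a median of 6, and no separate group at high numbers, which counting error at such low counts can hide.

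The members occurred in the same cells only slightly more than apart. Over cells, the S phase sum and the G2 and mitosis sum had a Pearson correlation of 0.02 in each library, a description over 10597 WT and 9640 KO cells that share a library and a depth. Cells with a UMI of a member held more UMIs of the other members than cells without it, for all 39 members in both libraries, but by little. The difference ran from 0.01 to 0.53 UMIs in WT, with a median of 0.25, and from 0.0011 to 0.62 in KO, with a median of 0.21. All cell types were pooled, the S phase level differs between them, and the part of cell type in these differences was not tested. Cells with a UMI of a member held more clustered histone UMIs in both libraries for 11 members and fewer in both for 10.

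The members did differ in the G2 and mitosis UMIs that came with them, and did so alike in both libraries. Fewer came with 14 members in both libraries and more with 19, and 6 had opposite signs. At the low end stood Ccne2, whose cells held 0.22 fewer in WT and 0.64 fewer in KO, Ung (0.40 and 0.27 fewer), Wdr76, Atad2 and Cdc6. At the high end stood Cdc45, whose cells held 0.35 more in WT and 0.31 more in KO, Rrm1 (0.27 and 0.36 more), Nasp, Rfc2 and Prim1. Roles were mixed along this order. Gins2, which acts beside Cdc45 at the fork, stood on the low side (0.11 and 0.14 fewer), as did the repair gene Rad51ap1 (0.38 and 0.21 fewer). Across the 39 genes the WT and KO differences had a Pearson correlation of 0.77, a description over genes counted in the same cells. All these differences were small beside the mean of 10.3 G2 and mitosis UMIs per WT cell and 11.3 per KO cell. They too were taken over all cell types pooled, and the part of cell type in them was not tested.

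**Figure D5:**
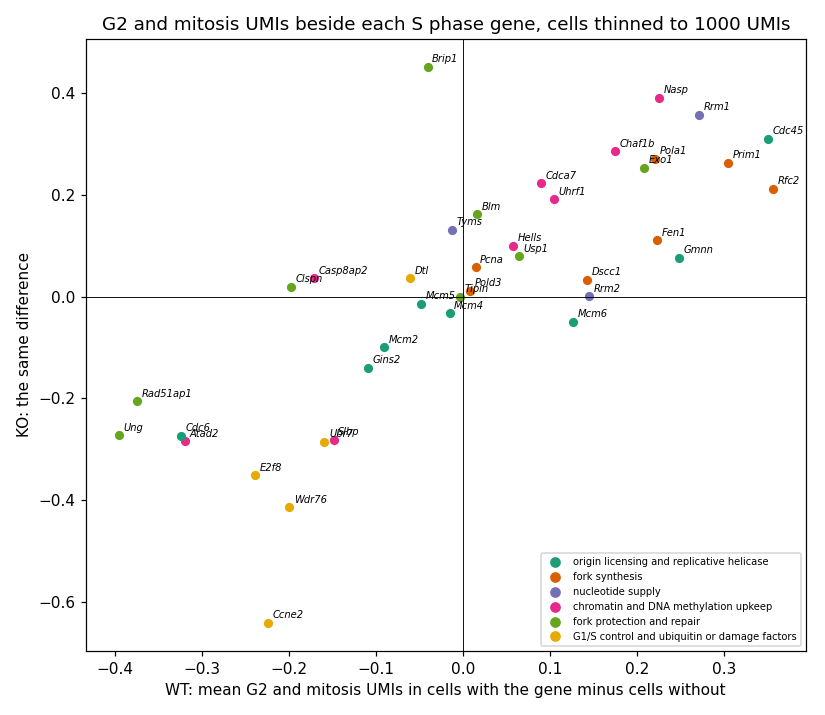
For each S phase gene, the mean G2 and mitosis UMIs in cells with a UMI of the gene minus the mean in cells without, WT against KO, cells thinned to 1000 UMIs. Points run from the lower left (Ccne2, Ung, Cdc6, E2f8) to the upper right (Cdc45, Rrm1, Nasp, Rfc2, Prim1).

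This order showed no clear relation to the ratio of KO over WT. Across the 39 members the Pearson correlation of the ratio with the WT difference was -0.11 and with the KO difference 0.06. The 13 members with the lowest WT difference had a median log2 ratio of 0.03, the 13 in the middle 0.07 and the 13 with the highest -0.06.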

How the data were processed

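Cells of 1 WT and 1 KO library were prepared with 10x 3′ v3 chemistry, and the submitters' processing notes name Cell Ranger 1.3.1, Scanpy and build mm10. The deposited values are scores, made by the authors as the square root of a cell's UMI counts scaled to a constant total; the squares of every cell summed to 1641. UMIs were recovered by squaring each value and dividing by the cell's smallest nonzero square, and 100% of nonzero values then lay within 0.01 of a whole number.

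UMIs were summed per library or gated cell type and divided by all UMIs of those cells. Levels and ratios carry exact 95% intervals for counting error, and with 1 library per genotype no test was made. The study's methods removed doublets before analysis, and here cells passing several gates were left out, except that neural tube cells that also passed the dorsal edge, floor plate or neuron gate went to the latter. The recovery and the intervals were run on data made to meet their own assumptions, a smallest count of 1 in each cell and counting error only. These runs cannot show whether the assumptions hold for the real cells. Python 3.11.15, NumPy 2.4.6 and SciPy 1.17.1 were used.

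Every member was to be named by its level over all cells, and per cell type the 8 members with most UMIs and any with at least 200 UMIs past a KO to WT ratio of 5 to 4 in either direction. Of the other replication genes, those past that ratio and E2f1 were to be named. The members, lists and gates were chosen with earlier results of these data known. Gene positions are from GENCODE vM21 (GRCm38, the same assembly as mm10). No column of another sample was used. Alternatives changed the scaling, the gates, the depth of the cells, the UMI minimum and the fold. Levels of different genes are not compared per length, since 3′ UMI counts do not grow with it.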

Additional observations from a re-analysis of the deposited data

How the results depend on the processing

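The S phase sum over all cells, 0.05 higher in KO on the log2 scale, was 0.11 under the trimmed mean of log ratios and 0.12 under the median of ratios. It was 0.067 without cells under 1000 UMIs, 0.063 with cells thinned to 1000 UMIs, 0.031 as the median of the members, and 0.086 with depth bins weighted alike. Relative to the G2 and mitosis sum it reversed to -0.054. The last 2 settings, the leaving out of cells whose barcode both libraries share, which gave 0.05, and the 10-UMI cardiac gate were added after seeing the data.

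In cardiac muscle, at 0.09, the value was 0.15 under the trimmed mean and 0.13 under the median of ratios, 0.13 thinned, 0.056 with no UMI minimum in the gate, and it reversed to -0.081 with at least 10 marker UMIs. Migrating neural crest, at 0.10, gave 0.034 with no UMI minimum and 0.064 with gates on thinned counts. Endothelial cells, at 0.056, gave 0.14 without the 5 members with most UMIs. Arch mesenchyme, at 0.13, gave 0.28 under the trimmed mean, 0.049 when thinned and 0.031 with gates on thinned counts. The dorsal neural tube edge, at -0.060, gave -0.29 as the median of the members and turned to 0.097 with gates on thinned counts. Somite, at 0.058, turned to -0.057 when thinned. The neural tube, at -0.012, turned to 0.021 and 0.046 under the scalings and to 0.025 when thinned. Floor plate, at -0.026, turned to 0.065 as the median of the members, and erythroid cells, at -0.057, to 0.0035 under the median of ratios. With gates on thinned counts, neurons, at 0.069, turned to -0.059, and pharyngeal and splanchnic mesoderm, at -0.048, went to -0.27, the latter also turning to 0.072 under the median of ratios. The cause was not tested.

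Of all genes, 406 were past the fold higher in KO and 1118 lower. With no UMI minimum these counts were 2221 and 3828, with at least 1000 UMIs 234 and 389, and at a fold of 1.5 they were 39 and 212. Under the trimmed mean 681 were higher, and under the median of ratios 707 were higher and 721 lower. The 2 members past the fold became 0 at a fold of 1.5, 6 under either scaling and 4 when thinned. The sign of 7 of the 39 members changed under some alternative: Cdc6, Dscc1, Slbp, Cdca7 and Brip1 under a scaling, and Brip1, Ung and Atad2 when thinned, Atad2 from 0.12 to -0.01. Thinning moved 16 members by over 1.5 times with the sign kept, 6 of them with an interval that left out 0: Mcm6 from -0.10 to -0.02, Pcna from -0.18 to -0.10, Fen1 from -0.15 to -0.10, Exo1 from -0.13 to -0.22, Blm from 0.25 to 0.13 and Usp1 from 0.065 to 0.024.

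No paired analysis was possible because each genotype is 1 library. Leaving out a replicate was not possible for the same reason. Few cells and shallow depth limit the values by cell type: Clspn had under 30 UMIs in several.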
